A study of Homo sapiens with 24 samples.

Results

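The comparison described here is between AGS cells treated for 24 h with (5Z)-7-oxozeaenol at 0.5 µM, called oxozeaenol below, and control cells that the labels give as having no treatment. AGS is an established human gastric adenocarcinoma line, labelled wild type and grown in Ham's F12 medium with 5% fetal calf serum. The 8 libraries, 4 of each kind, were chosen by their sample titles from the 24 libraries of the series, and all genes of the count table were compared. Each group had 4 biological replicates, and the replicate number is also labelled as the batch, so every batch held 1 control and 1 oxozeaenol library. Whether the control also received the solvent of the compounds is not stated. For direct comparison the text also uses the 4 libraries treated with PD0325901, a MEK inhibitor, at 0.035 µM and the 4 treated with PI103, which blocks PI3 kinases of class I together with mTOR, at 0.7 µM. The remaining 8 libraries, in which PI103 was combined with oxozeaenol or with PD0325901, each agent at a lower concentration than alone, entered only the estimate of the spread. By its title, the series was made to model metabolic changes that drugs cause in a cancer cell line.

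Oxozeaenol is used as an inhibitor of TAK1, the kinase encoded by MAP3K7. TAK1 works in a complex with the adaptors TAB1, TAB2 and TAB3. Receptors of the interleukin-1, tumour necrosis factor, Toll-like and TGF-beta families activate it through ubiquitin chains built by TRAF6 and similar ligases. Active TAK1 phosphorylates the IkB kinases, which release NF-kB, and the MAP kinase kinases that switch on JNK and p38, which in turn act on AP-1 transcription factors. Compounds of this class, resorcylic acid lactones with a reactive enone, bind covalently to a cysteine that TAK1 shares with other kinases, among them MEK and ERK.

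Depth was high in all 8 libraries, with 38057638 to 84226380 counts in genes. On the first principal component of the 8 libraries, which held 67.6% of the variance, controls lay between -45.64 and -40.24 and oxozeaenol libraries between 35.17 and 61.73, with oxozeaenol replicate 4 the farthest out. Oxozeaenol replicate 2 stood apart in another way: it had at least 1 count in 18263 genes, against 15645 to 16507 in the other 7 libraries, and 885 genes were counted in it alone among the 24, with 8 counts at most. Values without these 2 libraries are given where they matter. Levels are in CPM, a gene's share of its library's counts on a common scale. The line's epithelial identity was visible in all libraries: KRT8 (2804 and 2655 mean CPM in control and oxozeaenol), KRT18 (1794 and 1252), EPCAM (646 and 815) and CLDN4 (305 and 296) were high. CLDN3 was at or near 0, and CDH1 was at 13.3 and 15.2 CPM. Defining markers of other cell types were at or near 0, among them COL1A2, DCN, CD3E, CDH5 and PTPRC, with means up to 0.04 CPM in control and 0.0105 CPM with oxozeaenol. The summed level of 9 fibroblast markers was 14.3 to 17.4 CPM in control and 8.18 to 10.02 CPM with oxozeaenol, nearly all of it COL1A1, which fell by 0.77 from 14.8 ± 1.46 to 8.69 ± 0.731 CPM. That of 8 endothelial markers was 0.130 to 0.211 and 0.142 to 0.506 CPM. That of 9 leukocyte markers was 40.2 to 50.5 and 254 to 367 CPM, nearly all of it LYZ, which gastric epithelium also expresses and which rose by 2.79 from 44.9 ± 4.99 to 311 ± 49 CPM (SD, n = 4).

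Oxozeaenol changed about as many genes upward as downward. The quasi-likelihood test of edgeR was run on 13947 genes, and 7232 (51.9%) were called at a Benjamini-Hochberg adjusted p under 0.05. The 3590 higher (25.7%) and 3642 lower (26.1%) are the background against which each gene group is read below. Rises were more frequent than falls among the larger changes: 1083 called genes (7.77%) rose by at least 1 on the log2 scale and 608 (4.36%) fell by as much, and 312 (2.24%) rose and 173 (1.24%) fell by at least 2. The control and oxozeaenol values did not overlap at 5887 genes (42.2%), and 8306 (59.6%) moved the same way in all 4 batches. With a test against a minimum change of 1, 640 genes were called. Since these are bulk samples, fewer cells expressing a gene and less RNA per cell cannot be told apart.

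Among genes with a group mean of at least 5 CPM, the largest falls included genes that came close to silence. SPRR2D, a small proline-rich protein of squamous epithelium (chromosome 1, 153039725 to 153041931, minus strand, GRCh38), had 30.4, 13.7, 9.31 and 15.9 CPM in control replicates 1 to 4 and 0.0174, 0.151, 0.0284 and 0.0706 CPM with oxozeaenol. The oxozeaenol libraries held only 1 to 11 counts of it, against 734 to 1874 in control, and the log2 fold change was -7.81 (SE 0.57, adjusted p = 1.33e-10), or -8.68 without oxozeaenol replicate 2. SPRR2 genes are near copies of one another, so its counts are uncertain. SERPINB2, an inhibitor of plasminogen activators on chromosome 18, fell by 5.79 from 10.9 ± 3.65 to 0.2 ± 0.0449 CPM, and SERPINB10 on the same strand covers 19.9% of its exon length. TMEM156, a membrane protein on chromosome 4, had 28.7, 24.8, 20.7 and 23.5 CPM in control and 0.626, 0.903, 0.426 and 0.494 CPM with oxozeaenol, a fall of 5.26 (SE 0.24, adjusted p = 3.73e-14). Each of these genes was lower in every oxozeaenol library than in any control library, and they were chosen for the size of their falls. Of all genes tested, 42.2% had groups without overlap.

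Other large falls were found in signalling and transport genes. ERRFI1, a feedback inhibitor of the EGF receptor, had 1364, 1857, 1564 and 1921 CPM in control and 149.7, 188, 109 and 74.5 CPM with oxozeaenol, which was 12.9-fold lower by the fitted fold change. IER3, a survival gene of the immediate early response, fell by 4.06 on the log2 scale, from 193 ± 41.4 to 11.5 ± 4.52 CPM, and an antisense gene covers 26.5% of its exon length. SLCO2A1, the prostaglandin transporter, fell by 4.01 (SE 0.46, adjusted p = 2.41e-07). The noncoding RNA FLJ22447 fell by 4.70, from 83.4 ± 8.63 to 3.22 ± 1.06 CPM. MYH4, a myosin heavy chain whose close relatives could share its reads, fell by 3.89. SLCO2A1 and MYH4 were lower still without oxozeaenol replicate 2, at -4.65 and -4.67. KLHDC7B had 7.87, 4.15, 3.29 and 4.87 CPM in control and 0, 0.52, 0 and 0 CPM with oxozeaenol, so its fitted log2 fold change of -4.99 rests on 38 counts in oxozeaenol replicate 2, the other 3 libraries holding 0.

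The largest rises, under the same minimum of 5 CPM, began from low levels. TTN, the giant sarcomere protein titin (chromosome 2, 178525989 to 178830802, minus strand), had 0.13, 0.186, 0.147 and 0.105 CPM in control, from 8 to 12 counts, and 7.88, 8.26, 6.67 and 17.4 CPM with oxozeaenol, from 235 to 987 counts. It rose by 6.15 (SE 0.42, adjusted p = 3.55e-11), and oxozeaenol replicate 4 held the highest value. Antisense genes overlap 15.5% of its exon length, and 0.116% overlaps CCDC141 on the same strand, which also rose. TNNT2, cardiac troponin T, rose by 5.42 from 0.275 ± 0.127 to 12.3 ± 1.99 CPM. PAGE4, a cancer/testis antigen on the X chromosome, had 4.45, 9.07, 6.99 and 8.21 CPM in control and 146, 166, 182 and 313 CPM with oxozeaenol, which was 28.1-fold higher by the fitted fold change. Each oxozeaenol library was above each control library at these genes, which were chosen for the size of their rises.

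Other genes of that group had varied roles. PDZK1IP1, a small membrane protein of epithelia, rose by 4.44 from 0.4 ± 0.0608 to 8.65 ± 1.44 CPM. MSMB, a secreted protein of prostate and other mucosae, rose by 4.17, with 4.28, 5.24, 4.51 and 12 CPM in the oxozeaenol libraries. SPTLC3, a subunit of the enzyme that starts sphingolipid synthesis, rose by 3.67 (SE 0.28, adjusted p = 3.38e-10). TMPRSS2, a transmembrane serine protease, rose by 3.13 from 2.98 ± 0.352 to 26 ± 4.65 CPM. AMOT, a junction protein that binds YAP, rose by 3.30, and LAMA1, a laminin chain of basement membranes, by 3.10. RHOBTB1 rose by 3.48, FAM151A by 3.13 and ALPPL2, an alkaline phosphatase with near-identical relatives, by 3.35.

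In absolute terms the largest losses and gains of CPM were at abundant genes. The most CPM were lost by ERRFI1, the YAP target ANKRD1 (1151 ± 322 to 157 ± 65.7 CPM), the complement inhibitor CD55 (2072 ± 258 to 902 ± 109), PSAT1 of serine synthesis (1862 ± 164 to 738 ± 205) and asparagine synthetase ASNS (1499 ± 330.5 to 414 ± 143). The most were gained by the chaperone HSPA8 (1152 ± 542 to 3608 ± 575 CPM), S100A10, an annexin partner (1550.0 ± 39.9 to 3663 ± 377), the endoplasmic reticulum chaperones HSP90B1 (1612 ± 270.2 to 2972 ± 236) and CALR (1418 ± 77.7 to 2332 ± 162), and TMSB4X, an actin-binding peptide (1619 ± 336 to 2519 ± 611; SD, n = 4 for all). Of these 10 genes only TMSB4X had overlapping groups, with 1388, 1881, 1276 and 1933 CPM in control and 1784, 2260.0, 2920.0 and 3112 CPM with oxozeaenol. The 10 were picked among called genes with the same sign in all batches, and 42.2% of all genes tested did not overlap.

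The transcript of the target kinase did not pass the test. MAP3K7 had 67.9, 59, 68.8 and 59.5 CPM in control and 63, 63.7, 56.4 and 54.7 CPM with oxozeaenol, a log2 difference of -0.10 (SE 0.08, adjusted p = 0.313), and the groups overlapped. An mRNA level does not report on the kinase's activity. Of 16 genes of the TAK1 complex and its upstream adaptors, 2 were called higher and 6 lower, with a median log2 fold change of -0.08 against 0.02 over all genes tested. The adaptor TAB1 fell by 0.33 (26.1 ± 1.46 to 20.8 ± 1.22 CPM) and TAB2 by 0.65 (162 ± 10.9 to 104 ± 16.3 CPM), and the kinase RIPK1, which signals below the tumour necrosis factor receptor, rose by 0.35 (67.4 ± 3.32 to 86.2 ± 4.76 CPM). None of the 16 moved by as much as 1. Of the JNK and p38 kinases and their activators, 3 of 12 were higher and 3 lower (1 without oxozeaenol replicate 4), with a median of -0.06. These shares, 25% each way, were near the 25.7% higher and 26.1% lower of all genes. Of the TAK1 list 1 was higher without oxozeaenol replicate 3. MAPK14, which encodes p38 alpha, rose by 0.34, and its activator MAP2K6 by 1.24 from 1.18 ± 0.354 to 2.79 ± 0.949 CPM.

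NF-kB subunits fell, while NFKBIA and TNFAIP3, early targets of NF-kB, did not pass the test. Of 19 subunits and targets tested, 11 were lower and 1 higher (57.9% lower against 26.1% of all genes), with a median of -0.29. The 5 subunit genes NFKB1, NFKB2, REL, RELA and RELB all fell, by 0.29 at RELA to 1.23 at NFKB2. The calls of REL (0.43 to 0.47 lower without control replicate 3 or oxozeaenol replicate 3) and RELB (0.49 to 0.55 lower without control replicate 2 or 4 or oxozeaenol replicate 3 or 4) rested on single libraries. NFKB2, which encodes the p100 subunit, had 38.3, 34.5, 28.8 and 35.4 CPM in control and 15.5, 15.9, 14.5 and 12.6 CPM with oxozeaenol, a fall of 1.23 (SE 0.11, adjusted p = 2.62e-09) without overlap. NFKBIB, an inhibitor of NF-kB, fell by 0.81, and the target BIRC3, an inhibitor of cell death, fell by 0.97 from 5.61 ± 1.16 to 2.89 ± 0.75 CPM. The inhibitor NFKBIA, itself an early target, had 33.9, 30.7, 37.4 and 35.7 CPM in control and 36.5, 37.4, 38.1 and 35 CPM with oxozeaenol (log2 difference 0.09, adjusted p = 0.317). TNFAIP3, the deubiquitinase A20, had 2.58, 2.63, 2.48 and 2.79 CPM in control and 3.08, 2.72, 1.45 and 2.82 CPM with oxozeaenol (log2 difference -0.04, adjusted p = 0.894). Both groups overlapped at NFKBIA and at TNFAIP3. ICAM1, an adhesion molecule, was the 1 member that rose, by 0.45.

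Chemokines and cytokines were divided. Of 25 chemokines and cytokines listed 15 were expressed enough to be tested, and 6 were higher and 6 lower, with a median of 0.17. When only the 2 groups were fitted, the median was -0.31 over those of the 15 that passed that fit's own filter. IL8 (CXCL8), the neutrophil chemokine, had 4.97, 14, 7.05 and 14.7 CPM in control and 0.0696, 0.164, 0.199 and 0.0353 CPM with oxozeaenol, from 2 to 12 counts, and fell by 6.47 (SE 0.45, adjusted p = 3.12e-11). CXCL1, of the same receptor class, fell by 1.21 from 2.97 ± 0.525 to 1.28 ± 0.325 CPM, CXCL3 by 0.85 and CXCL2 by 0.60. CXCL10, a chemokine for T cells, had 0.486, 0.484, 0.843 and 0.709 CPM in control and 3.03, 3, 3.55 and 3.49 CPM with oxozeaenol, and rose by 2.34 (SE 0.21, adjusted p = 1.37e-09). CXCL11, of the CXCL10 class, rose by 2.75 from 0.872 ± 0.0685 to 5.93 ± 2.13 CPM. CCL5, another T cell chemokine, rose from 0.407 ± 0.056 to 1.45 ± 0.271 CPM. The cytokines IL18 and LIF fell by 1.31 and 0.67, and CSF1 and CXCL16 rose by 0.63 and 0.73. At IL8, CXCL1 and CXCL10 the control and oxozeaenol libraries did not overlap, as at 42.2% of all genes tested.

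The promoters of 3 of these genes are shown because genes that fell and rose carry the same NF-kB motif. Each stretch lies upstream of a RefSeq start (GRCh38.p14, chromosome 4), and that of IL8 leaves out the bases next to the start. All are written 5′ to 3′ on the gene's strand. Capitals mark matches to the NF-kB motif (GGANTTTCC), the AP-1 motif (TGANTCA) or, in CXCL10 alone, the interferon element (GAAA, any 2 bases, GAAA), each searched on both strands. The IL8 stretch (chr4:73740419-73740505, plus strand) holds an AP-1 match 137 to 131 bases and an NF-kB match 91 to 83 bases before the start. The CXCL1 stretch (chr4:73869243-73869392, plus strand) holds 1 NF-kB match, and the CXCL10 stretch (chr4:76023498-76023747, minus strand) holds an interferon element and an NF-kB match. No match overlaps another.
IL8: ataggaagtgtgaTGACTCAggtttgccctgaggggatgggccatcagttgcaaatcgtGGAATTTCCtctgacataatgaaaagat
CXCL1: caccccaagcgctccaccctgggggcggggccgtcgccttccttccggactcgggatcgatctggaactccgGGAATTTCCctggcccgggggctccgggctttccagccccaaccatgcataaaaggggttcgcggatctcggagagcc
CXCL10: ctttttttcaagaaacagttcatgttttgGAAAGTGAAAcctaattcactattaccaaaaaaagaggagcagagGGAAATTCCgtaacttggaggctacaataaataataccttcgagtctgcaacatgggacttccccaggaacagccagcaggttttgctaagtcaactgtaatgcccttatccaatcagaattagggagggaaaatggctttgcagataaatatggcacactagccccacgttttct
Of the 9 tested chemokine and cytokine genes with a promoter in the RefSeq table (300 bases each), 7 held the NF-kB motif: IL8, CXCL1, CXCL2 and CXCL3 fell, CXCL10 and CXCL11 rose, and IL32 was not called. The motif was in 10 of 17 promoters of the NF-kB list, in 2.4% of the promoters of all tested genes and in 1.64% of the 35116 promoters of the table. A match is a description of the sequence and not a measured binding site.

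AP-1 genes fell almost throughout. Of 13 tested, 11 were lower and 0 higher (84.6% lower), 7 of them by at least 1, with a median of -1.34. JUN had 153, 198, 167 and 231 CPM in control and 90.1, 80.2, 68.4 and 58.2 CPM with oxozeaenol, and fell by 1.34 (SE 0.13, adjusted p = 8.39e-09). FOS had 17.8, 27, 21.9 and 32.6 CPM in control and 6.4, 5.75, 4.34 and 4.3 CPM with oxozeaenol, a fall of 2.25. FOSL1 fell by 2.57 from 55.4 ± 10.5 to 9.29 ± 3.29 CPM, FOSB by 3.93 from 2.75 ± 1.05 to 0.169 ± 0.0868 CPM, JUNB by 2.38 and the small Maf protein MAFF by 2.89. The members that did not pass were JUND (log2 difference -0.07) and ATF2 (-0.01). Both groups were separate at JUN, FOS, FOSL1, FOSB, JUNB and MAFF, as at 42.2% of all genes tested.

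Immediate-early genes, most of which serum and growth factor signals switch on within minutes, also fell. Of 18 tested, 16 were lower and 0 higher (88.9% lower), 13 by at least 1, and the median was -1.73. EGR1, a zinc finger transcription factor, had 157, 240.3, 158 and 248.8 CPM in control and 11.6, 10.4, 3.49 and 1.92 CPM with oxozeaenol. It was 28.8-fold lower by the fitted fold change (log2 fold change -4.85, SE 0.49, adjusted p = 9.05e-08). Its oxozeaenol values themselves spread widely, with replicates 3 and 4 well below replicates 1 and 2. EGR2 fell by 5.00 from 1.5 ± 0.306 to 0.0444 ± 0.0226 CPM. KLF4, a Krüppel-like factor of epithelia, fell by 2.64 (185 ± 16.1 to 29.7 ± 7.12 CPM) and KLF10 by 2.19 (172 ± 3.21 to 37.6 ± 6.47 CPM). MYC had 301, 294, 247 and 329.8 CPM in control and 132, 122, 125 and 99 CPM with oxozeaenol, a fall of 1.29, and CCND1, cyclin D1, fell by 0.97 from 891 ± 59 to 454 ± 58.9 CPM. IER5 (log2 difference -0.03) and NR4A2 (-0.47) did not pass.

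The EGR1 promoter is shown because it carries 2 CArG boxes, the motif bound by serum response factor, in capitals at 105 to 96 and 83 to 74 bases before the RefSeq start (chr5:138465329-138465478, plus strand, GRCh38.p14).
EGR1: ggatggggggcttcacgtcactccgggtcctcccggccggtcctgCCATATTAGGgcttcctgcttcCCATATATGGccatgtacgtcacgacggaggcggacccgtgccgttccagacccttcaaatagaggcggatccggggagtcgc
CArG boxes, searched on both strands, were found in the promoters of EGR1 and EGR2 among 11 immediate-early genes with a promoter in the table, in 1.66% of those of all tested genes and in 1.29% of all in the table. The AP-1 motif was in 12.4% of 443 promoters of genes that fell by at least 1, in 8.84% of 724 of genes that rose by at least 1, in 7.37% of those of all tested genes and in 7.71% of all in the table.

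Feedback genes of the ERK pathway fell in part. Of 12 tested, 8 were lower and 0 higher (66.7% lower), with a median of -1.10. DUSP6, the phosphatase that inactivates ERK, had 134, 129.6, 115 and 148 CPM in control and 26.5, 33.4, 17.3 and 12.8 CPM with oxozeaenol, a fall of 2.54 (SE 0.28, adjusted p = 1.16e-07). An antisense gene covers 40.5% of its exon length. SPRY4, which inhibits receptor signalling, fell by 1.74 from 44 ± 3.99 to 13.1 ± 2.52 CPM. The ETS factor ETV5 fell by 1.35 from 128 ± 3.75 to 50 ± 13.2 CPM, and ETV1 by 2.03 from 1.42 ± 0.242 to 0.348 ± 0.151 CPM. SPRY1 (log2 difference 0.14), SPRY2 (0.21), DUSP7 (0.27) and SPRED3 (0.85, near 0.134 CPM) did not pass, although DUSP7 was called with the batch as a block (adjusted p = 0.0145 in edgeR) and without control replicate 1 (0.43) or oxozeaenol replicate 2 (0.36), which made it the 1 feedback gene higher. In the EGF receptor family, 5 of 9 tested genes were lower and 1 higher: the ligand HBEGF fell by 2.65, from 84.4 ± 16.5 to 13.4 ± 3.22 CPM, and EGFR itself by 1.31, from 52.2 ± 6.83 to 21 ± 2.53 CPM.

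Targets of ATF4, the transcription factor of the amino acid and stress response, had the largest share of falls among the lists with at least 8 genes tested. Of 22 tested, 21 were lower (95.5%) and 0 higher, 19 by at least 1, with a median of -1.94. TRIB3, a pseudokinase, had 23.6, 34.6, 24.8 and 41.5 CPM in control and 0.8, 2.68, 0.284 and 0.282 CPM with oxozeaenol, a fall of 4.83 (SE 0.54, adjusted p = 1.95e-07), or 6.03 without oxozeaenol replicate 2. ASNS had 1162, 1767, 1269 and 1798 CPM in control and 391, 618, 354 and 290.1 CPM with oxozeaenol, a fall of 1.86 (SE 0.36, adjusted p = 2.15e-04). An unnamed gene on the same strand covers 44.6% of its exon length. The stress cytokine GDF15 fell by 2.10 from 366 ± 94.2 to 85.2 ± 27.8 CPM, VEGFA by 1.45 from 236 ± 28.2 to 86.5 ± 16.8 CPM, and DDIT4, an inhibitor of mTOR, by 2.90 from 668 ± 98.7 to 89.3 ± 65.6 CPM. INHBE, a growth factor subunit, fell by 2.77, with 6.14, 23.1, 1.9 and 1.94 CPM in the oxozeaenol libraries, or 4.08 without oxozeaenol replicate 2. FGF21, a metabolic hormone, fell by 2.70, or 4.06 without the same library. ATF4 itself fell by 0.46 (791 ± 62.2 to 576 ± 46.1 CPM), and NUPR1 (log2 difference -0.94, adjusted p = 0.0562) was the member that did not pass. NUPR1 was called with the batch as a block (-1.09) and without oxozeaenol replicate 2 (-1.43).

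A 30-base stretch of the ASNS promoter (chr7:97872459-97872488, minus strand, GRCh38.p14) is shown with the C/EBP-ATF element (TGATGNAAN, searched on both strands) in capitals, 68 to 60 bases before the RefSeq start, since this is the motif bound by ATF4 dimers.
ASNS: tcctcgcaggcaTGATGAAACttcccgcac
The element was in 5 of 18 ATF4 target promoters (CHAC1, ASNS, SLC3A2, SLC7A1 and FGF21). All 18 genes were called lower, with or without the element, and TRIB3 (-4.83) and STC2 (-3.69) were among those without it. The element was in 9.26% of promoters of genes that fell by at least 1, in 3.18% of those that rose by at least 1, in 2.84% of those of all tested genes and in 3.61% of all in the table.

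Genes of amino acid handling also fell. Of 20 cytosolic aminoacyl-tRNA synthetases, 19 were lower and 0 higher, with a median of -0.82. CARS, for cysteine, fell by 1.28 (311 ± 32.8 to 128 ± 28.4 CPM), EPRS, for glutamate and proline, by 1.12 and LARS, for leucine, by 1.07 (361 ± 6.3 to 172 ± 29.2 CPM). Among 19 amino acid transporters, 11 were lower and 5 higher. The cystine transporter SLC7A11 fell by 1.94 from 374 ± 47.3 to 97.5 ± 39.6 CPM. The glutamate transporter SLC1A3 rose by 1.39, with 76, 65.9, 82.2 and 66.7 CPM in control and 187, 181, 192 and 202 CPM with oxozeaenol, and SLC7A8, a neutral amino acid exchanger, rose by 1.38. Serine, glycine and one-carbon enzymes were divided, with 8 of 23 higher and 8 lower: MTHFD1L, of the mitochondrial folate pathway, fell by 1.28, PSAT1 fell by 1.34 and GLDC, which breaks down glycine, rose by 2.55 from 4.07 ± 0.748 to 23.8 ± 5.52 CPM.

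Cholesterol synthesis genes rose nearly as a block. Of 25 genes, 21 were higher (84% against 25.7% of all genes), 9 of them by at least 1, and the median was 0.84. HMGCS1, an early enzyme of the pathway, had 336, 219, 398 and 206 CPM in control and 614, 652, 755 and 636 CPM with oxozeaenol, a rise of 1.20 (SE 0.18, adjusted p = 7.29e-06). TM7SF2, a sterol reductase, rose by 1.67 from 26.4 ± 2.21 to 83.9 ± 2.48 CPM, and MSMO1, a sterol demethylase, by 1.62. PMVK and STARD4 did not pass, with log2 differences of 0.08 and 0.28. Of 17 fatty acid genes tested, 7 rose and 0 fell. ACSS2, which makes acetyl-CoA from acetate, rose by 1.18 (61.8 ± 4.51 to 139.8 ± 10.2 CPM), the elongase ELOVL7 by 1.35, and MLXIPL, a glucose-sensing transcription factor, by 2.25 from 0.649 ± 0.183 to 3.08 ± 1.36 CPM.

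Of 24 genes of glucose uptake and glycolysis, 13 were lower and 5 higher, with a median of -0.35. The glucose transporter SLC2A1 had 1537, 1445, 1208 and 1609 CPM in control and 646, 623, 505 and 385 CPM with oxozeaenol, a fall of 1.42 (SE 0.15, adjusted p = 1.64e-08). The transporter SLC2A3 fell by 0.84, from 1287 ± 89.7 to 717 ± 107 CPM, and hexokinase HK2 by 1.47, from 109 ± 7.08 to 39.4 ± 9.19 CPM. Of 8 pentose phosphate genes, 2 were higher and 0 lower, with a median of -0.01. The higher share, 25%, was near the 25.7% of all genes. H6PD, 1 of the 2, rose by 0.31, a call lost without oxozeaenol replicate 4 (0.24). Among 26 genes of the tricarboxylic acid cycle 8 were higher and 5 lower (2 without control replicate 3 or without oxozeaenol replicate 4), with IDH2, mitochondrial isocitrate dehydrogenase, rising by 1.13 (25.1 ± 0.777 to 55 ± 6.27 CPM) and the pyruvate dehydrogenase subunit PDHA1 falling (80.6 ± 7.37 to 55.5 ± 4.8 CPM, log2 fold change -0.54).

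Among nuclear-encoded subunits of the respiratory chain 16 of 50 were higher and 2 lower (1 without any of control replicates 1, 2 and 4 and oxozeaenol replicates 1 and 4), with a median of 0.15. The higher share, 32%, was not far above the 25.7% of all genes, and the lower share was 4% against 26.1%. The median over members of log2 CPM minus the control mean overlapped between the groups. It was -0.19 to 0.15 in the controls and -0.03 to 0.36 in the oxozeaenol libraries. COX6B1, of cytochrome oxidase, rose by 0.63 (186 ± 13.3 to 287 ± 23.6 CPM), and COX7B had 96.5, 119, 89.4 and 113 CPM in control and 137, 175, 264 and 319 CPM with oxozeaenol. The 13 mitochondrially encoded subunits were not analysed here. Of 28 purine and pyrimidine synthesis genes, 5 were higher (3 without control replicate 4) and 7 lower, with a median of -0.01. Their shares, 17.9% higher and 25% lower, did not exceed the 25.7% and 26.1% of all genes. GART, of the purine pathway, was among the lower and fell by 0.64 (334 ± 18.6 to 215 ± 31.4 CPM). In polyamine metabolism 2 of 12 were higher (1 without oxozeaenol replicate 3) and 6 lower. ODC1, the rate-limiting decarboxylase, had 426, 374, 384 and 380.3 CPM in control and 409, 386, 378 and 387 CPM with oxozeaenol (log2 difference -0.00, SE 0.09, adjusted p = 0.99), with overlapping groups. The catabolic enzymes SMOX and SAT1 fell by 1.74 and 1.15, SAT1 from 310.1 ± 40.6 to 139.8 ± 20.5 CPM.

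Counts of 0 were checked in other ways. In the 7 directions with 0 genes called by edgeR against control in the lists of AP-1 factors, immediate-early genes, ATF4 targets, aminoacyl-tRNA synthetases, ribosome biogenesis, gastric epithelium and metallothioneins, 0 genes had an unadjusted p under 0.05 and DESeq2 called 0. For ERK feedback genes (higher), fatty acid genes (lower), pentose phosphate genes (lower) and replication genes (lower), 1 gene each had an unadjusted p under 0.05, and DESeq2 called 1 of them, a replication gene. Of the directions with 0 genes called against PD0325901 or PI103 that are given below, only ribosome biogenesis (lower) held a gene at an unadjusted p under 0.05, 1, apart from the ATF4 targets, and DESeq2 called 0 in each.

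**Figure D1:**
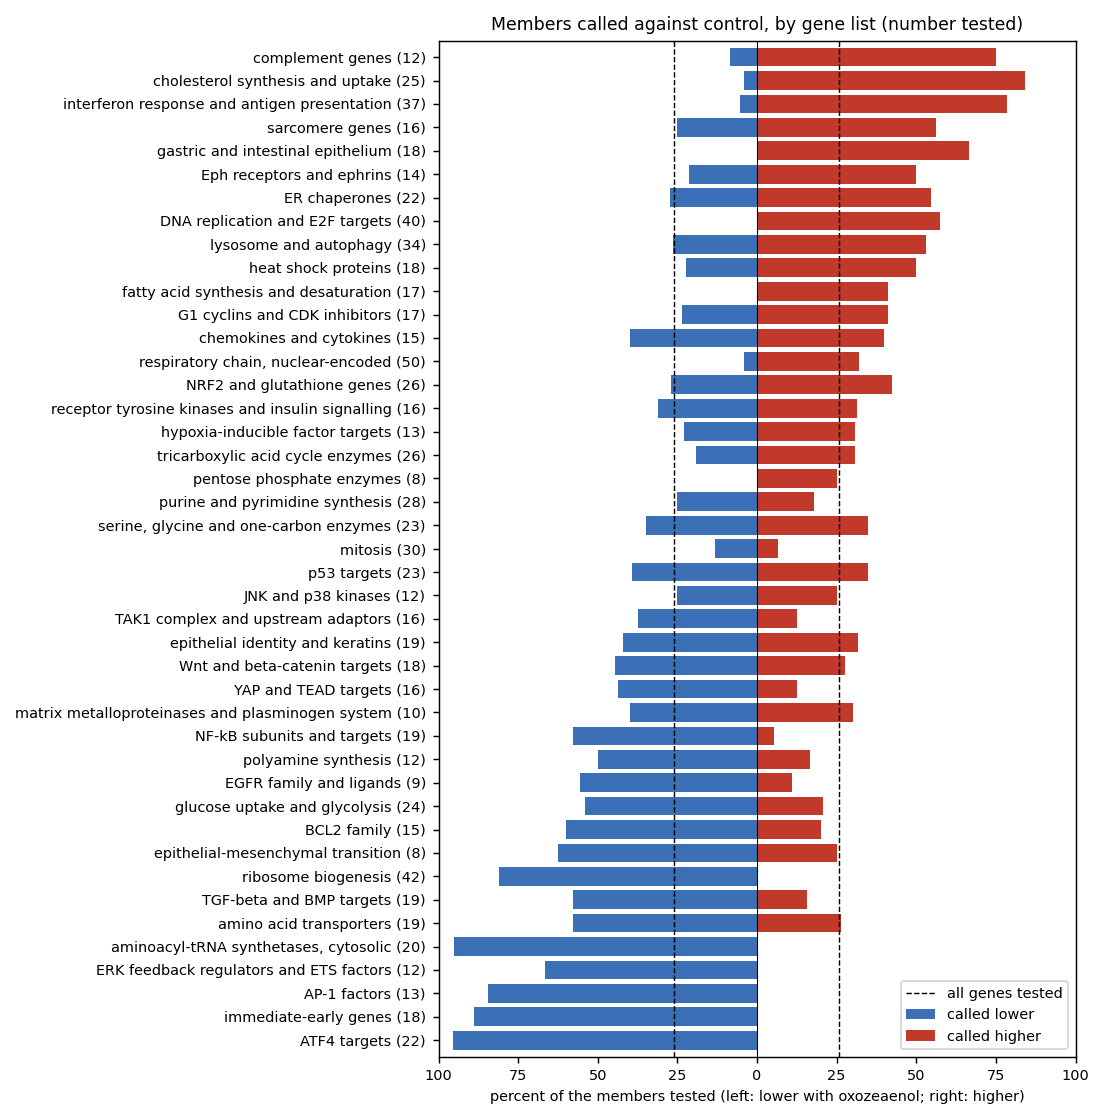
Percent of the tested members of each gene list that edgeR called lower (left, blue) or higher (right, red) with oxozeaenol, for lists with at least 8 members tested, ordered by median log2 fold change. Dashed lines mark the shares over all genes tested, 26.1% lower and 25.7% higher, and the lists at the bottom (ATF4 targets, immediate-early genes, AP-1 factors) have no member called higher.

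Ribosome biogenesis fell and DNA replication rose. Of 42 ribosome biogenesis genes, 34 were lower and 0 higher, with a median of -0.48: RRP12, a processing factor of the small subunit, fell by 1.80 from 79.8 ± 8.46 to 22.9 ± 5.12 CPM, and RRN3, which recruits RNA polymerase I, by 0.75 from 114 ± 5.74 to 68.3 ± 9.47 CPM. Of 40 replication genes and E2F targets, 23 were higher and 0 lower, with a median of 0.38. FEN1, the flap endonuclease, had 64.6, 42.5, 56.7 and 41.2 CPM in control and 118, 100, 111 and 105 CPM with oxozeaenol, a rise of 1.08 (SE 0.13, adjusted p = 1.85e-07), and GINS1, of the replicative helicase, rose by 0.98 from 136 ± 14.5 to 268 ± 25.9 CPM. Mitotic genes mostly did not pass, with 2 of 30 higher and 4 lower, and 1 higher and 2 lower without oxozeaenol replicate 4. Without control replicate 1 or 4 or oxozeaenol replicate 3, 1 was higher. CDK1 rose by 0.85 (229 ± 23.6 to 412 ± 54.1 CPM), while CDC25C, a phosphatase that activates CDK1, fell by 0.73 (33.8 ± 1.15 to 20.3 ± 4.11 CPM).

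Among 17 G1 cyclins and CDK inhibitors, 7 were higher and 4 lower. The inhibitor CDKN2B (p15) fell by 1.01 from 76.2 ± 3.59 to 37.9 ± 2.92 CPM, and CDKN1C (p57) rose by 2.27 from 0.962 ± 0.241 to 4.71 ± 1.08 CPM. The p53 targets were divided, with 8 of 23 higher and 9 lower, and those that fell most, SESN2 (-2.11) and GDF15, are also on the ATF4 list. The death receptor TNFRSF10B fell by 0.96, from 198 ± 9.08 to 102 ± 7.08 CPM. Of 15 BCL2 family genes, 9 were lower and 3 higher. MCL1, a survival protein, fell by 0.76 (562 ± 18.8 to 333 ± 31 CPM), BCL2L13 by 0.73, and PMAIP1, the death-promoting NOXA, by 1.51 (72.5 ± 13.8 to 25.5 ± 8.09 CPM), so members with opposite roles moved the same way.

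Targets of TGF-beta and BMP signalling, which also runs through TAK1 besides the SMAD proteins, fell more often than all genes, with 11 of 19 lower (57.9%), 3 higher (5 without control replicate 3) and a median of -0.71. SMAD7, the inhibitory SMAD, had 36.5, 38, 40.9 and 38.5 CPM in control and 13.6, 13.5, 13.8 and 11 CPM with oxozeaenol, a fall of 1.57 (SE 0.08, adjusted p = 9.09e-14). ID3, an inhibitor of differentiation factors, fell by 1.60 from 58.9 ± 3.17 to 19.5 ± 4.65 CPM, and SKIL, a SMAD repressor, by 1.73 from 340.4 ± 67.5 to 103 ± 27.5 CPM. Among 16 YAP and TEAD targets, 7 were lower and 2 higher: ANKRD1 fell by 2.87, CYR61 by 1.17 (80.01 ± 11.6 to 35.5 ± 5.6 CPM), and F3, tissue factor, rose by 0.75. Wnt targets were divided, with 8 of 18 lower and 5 higher. DKK1, a secreted Wnt inhibitor, rose by 1.32 from 509 ± 40.4 to 1268 ± 135 CPM and the receptor EPHB2 by 1.44 from 9.03 ± 0.66 to 24.6 ± 2.23 CPM.

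Interferon response and antigen presentation genes rose. Of 37 tested, 29 were higher (78.4% against 25.7%) and 2 lower, 15 higher by at least 1, with a median of 0.71. IFI27, an interferon-induced mitochondrial protein, had 2.12, 2.29, 1.71 and 1.65 CPM in control and 7.9, 8.36, 9.54 and 9.16 CPM with oxozeaenol, a rise of 2.17 (SE 0.13, adjusted p = 7.34e-13). IFI6 rose by 1.95 from 20.5 ± 3.18 to 79.1 ± 5.24 CPM, and BST2, the tetherin that holds virus particles at the membrane, by 2.95 from 0.168 ± 0.04 to 1.33 ± 0.181 CPM. IFIT1, which binds foreign RNA, rose by 1.71 from 22.4 ± 1.41 to 73.1 ± 10.1 CPM, and B2M, the light chain of class I molecules, by 1.25 from 528 ± 83.8 to 1260.0 ± 442 CPM. The transcription factor IRF7 fell by 1.02 and the peptide transporter subunit TAP2 by 0.50. Among the 6 that did not pass were IRF1 (log2 difference -0.13) and IRF9 (0.15).

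The IFIT1 promoter stretch (chr10:89392473-89392545, plus strand, GRCh38.p14) is shown because it holds 2 interferon elements on the minus strand, in capitals, 116 to 107 and 103 to 94 bases before the RefSeq start.
IFIT1: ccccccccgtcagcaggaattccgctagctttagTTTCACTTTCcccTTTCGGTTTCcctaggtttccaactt
The element was in 19 of 28 promoters of this list, in 3.88% of those of all tested genes and in 3.57% of all in the table. Most of the 19 genes with it were called higher, but TAP2 fell and MX1 (log2 difference 0.01) was not called. Genes without it also rose, such as PSMB9 by 1.98, or were not called, such as IRF1 (-0.13). Complement genes also rose, with 9 of 12 tested higher and 1 lower and a median of 1.18. CFB, a factor of the alternative pathway, 45.5% of whose exon length overlaps a neighbour on its own strand, rose by 2.98 from 0.366 ± 0.0881 to 2.96 ± 0.21 CPM. The member that fell was CD55, which protects cells from complement, with 1805, 2250.0, 1903 and 2331 CPM in control and 855, 1066, 842 and 847 CPM with oxozeaenol, a fall of 1.20 (SE 0.10, adjusted p = 5.37e-10).

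Chaperones of the endoplasmic reticulum rose, while sensors of the unfolded protein response fell. Of 22 genes, 12 were higher and 6 lower: PDIA4, a disulfide isomerase, rose by 1.18 (408 ± 29.9 to 922 ± 57.8 CPM), while the sensors ERN1 and ATF6 fell by 1.55 (11.2 ± 1.56 to 3.81 ± 0.427 CPM) and 0.77 (187 ± 9.5 to 109.5 ± 11.6 CPM) and XBP1, which ERN1 splices, by 1.20 (406 ± 29.7 to 177 ± 36.2 CPM). Of 18 heat shock proteins, 9 were higher and 4 lower. HSPA8, the constitutive cytosolic HSP70, had 1905, 738, 1190.0 and 776 CPM in control and 3738, 3536, 4274 and 2883 CPM with oxozeaenol, a rise of 1.65, and its mitochondrial relative HSPA9 fell by 1.11 from 1060.0 ± 78.7 to 491 ± 88.3 CPM. Lysosome and autophagy genes were higher in 18 of 34 and lower in 9 (5 without oxozeaenol replicate 4). NPC2, a lysosomal cholesterol carrier, rose by 1.42 from 129 ± 7.24 to 346 ± 53 CPM, and MAP1LC3B, which coats autophagosomes, fell by 1.92 from 385 ± 62.3 to 102 ± 19 CPM.

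NRF2 and glutathione genes were divided, with 11 of 26 higher and 7 lower. NFE2L2, which encodes NRF2, fell by 0.97 (239.7 ± 11.5 to 122 ± 18.2 CPM; 17.6% of its exon length overlaps a neighbour on its own strand), and GPX2, a glutathione peroxidase of the gut, rose by 1.05 (15.9 ± 1.33 to 33 ± 3.06 CPM). Of 4 metallothioneins tested, 2 were higher and 0 lower, or 1 higher and 1 lower without oxozeaenol replicate 4. MT1E had 4.49, 4.19, 2.6 and 5.22 CPM in control and 5.45, 4.97, 5.62 and 19.4 CPM with oxozeaenol, and its rise of 1.11 became 0.37 and was no longer called without oxozeaenol replicate 4. MT1F rose by 1.25, with 3.46, 3.42, 3.09 and 12 CPM in the oxozeaenol libraries, or by 0.52 without replicate 4. Metallothionein genes are near copies of one another, so the split of reads between them is uncertain.

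Genes of gastric and intestinal epithelium rose, with 12 of 18 tested higher and 0 lower and a median of 0.62. SOX2, a transcription factor of the stomach lining, had 10.7, 8.64, 12.2 and 11.8 CPM in control and 43.7, 46.3, 39.6 and 40.6 CPM with oxozeaenol, a rise of 1.97 (SE 0.19, adjusted p = 9.31e-09). MUC1, a membrane mucin, rose by 1.60 from 23.8 ± 3.98 to 72 ± 8.34 CPM, and APOA1, an intestinal apolipoprotein, by 2.65 from 0.554 ± 0.191 to 3.44 ± 0.24 CPM. Among 19 keratins and other epithelial genes, 8 were lower and 6 higher: KRT17 fell by 1.82 (44.1 ± 9.73 to 12.5 ± 3.39 CPM), KRT81 by 1.93, and KRT15 rose by 1.11 (3.52 ± 0.325 to 7.63 ± 0.709 CPM). Of 18 genes of the epithelial-mesenchymal transition only 8 were expressed enough to be tested, 2 higher and 5 lower. The calcium-binding S100A4 rose by 2.06 (36.9 ± 5.17 to 154 ± 48.2 CPM) and the integrin ITGA5 fell by 1.21 (83.1 ± 5.31 to 35.9 ± 3.88 CPM).

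Of 16 sarcomere genes tested, 9 were higher and 4 lower, TTN and TNNT2 among the first and MYH4 among the second. DES, desmin, rose by 1.80 from 2.01 ± 0.368 to 7.04 ± 0.677 CPM and TNNC1, troponin C, by 2.60 from 12.4 ± 2.63 to 75 ± 13.3 CPM. Among 10 metalloproteinase and plasminogen genes 3 were higher and 4 lower, with the inhibitor TIMP2 rising by 1.01 (44.3 ± 4.93 to 89 ± 9.17 CPM). Eph receptors and ephrins were higher in 7 of 14 and lower in 3. The ligand EFNA1 rose by 0.93 (40.9 ± 3.19 to 78 ± 1.26 CPM), and EFNA5 by 2.17 or, without oxozeaenol replicate 4, by 1.5. Of 16 genes of receptor tyrosine kinases and insulin signalling, 5 were higher and 5 lower, 31.25% each way against 25.7% and 26.1% of all genes. FGFR3 rose by 0.89 and the insulin receptor substrate IRS1 fell by 0.81 (72.6 ± 4.22 to 41.5 ± 8.83 CPM). INSR, the insulin receptor, had 15.7, 14.1, 16.3 and 13.6 CPM in control and 18.5, 15.7, 16.7 and 20.1 CPM with oxozeaenol (log2 difference 0.25, adjusted p = 0.0642). It was called when the batch entered edgeR's fit as a block (adjusted p = 0.0435), without control replicate 3 (0.30, adjusted p = 0.0411) and without oxozeaenol replicate 2 (0.31, adjusted p = 0.0336). Of 13 hypoxia targets, 4 were higher and 3 lower.

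The 4 oxozeaenol libraries did not respond to the same extent. The median over the 22 ATF4 targets of log2 CPM minus the control mean was -1.82, -1.23, -2.29 and -2.45 in oxozeaenol replicates 1 to 4, while the controls lay between -0.24 and 0.22. Immediate-early genes stood at -1.53, -1.48, -1.89 and -2, and aminoacyl-tRNA synthetases at -0.69, -0.72, -0.87 and -1.22. Replicate 4 was thus the lowest for these lists and replicate 1 or 2 the highest, and in every case all oxozeaenol libraries lay below all controls. Cholesterol genes (0.72, 0.82, 0.94 and 0.86) and replication genes (0.47, 0.34, 0.38 and 0.40) were more even. Reads outside annotated features made up 8.57% in replicate 4 and 5.74% to 6.81% in the other oxozeaenol libraries, and the part of this difference in the lists' values was not tested.

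**Figure D2:**
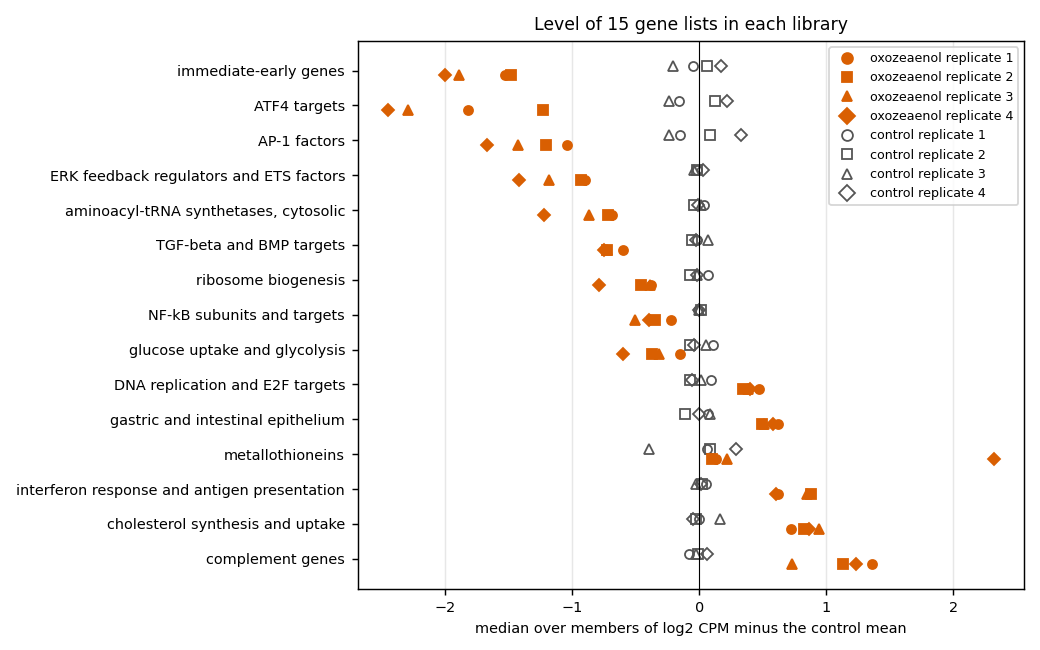
Median over the tested members of each of 15 gene lists of log2 CPM minus the gene's control mean, in each library (open grey symbols for control, filled orange for oxozeaenol, 1 symbol shape per replicate). Oxozeaenol replicate 4 is lowest for the ATF4 targets at -2.45, and it alone is high for the metallothioneins, at 2.32 against 0.10 to 0.22 in the other oxozeaenol libraries.

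Oxozeaenol was also compared directly with the other single agents, which shows where it differed from inhibiting MEK or PI3 kinase and mTOR. Each agent was given at a single concentration, so that equal effective doses cannot be assumed, and both comparisons use the same oxozeaenol libraries. Against PD0325901, 3976 genes differed (28.5%), 1874 higher (13.4%) and 2102 lower (15.1%), or 2385 without PD0325901 replicate 2 and 2348 when only these 2 groups were fitted. Against PI103, 6014 differed (43.1%), 3138 higher (22.5%) and 2876 lower (20.6%).

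Against PD0325901, nearly all DNA replication genes and most ERK feedback genes were higher, while most mitosis genes were not called. Of 40 replication genes, 39 were higher with oxozeaenol than with PD0325901 and 0 lower, with a median log2 difference of 0.64. FEN1 was at 66.7 ± 4.61 CPM with PD0325901 and 108 ± 7.57 CPM with oxozeaenol (SD, n = 4). Of 30 mitosis genes 8 were higher and 0 lower, and the higher count was 3 without PD0325901 replicate 2, 5 without PD0325901 replicate 1 or oxozeaenol replicate 3, 4 without oxozeaenol replicate 1 and 15 without oxozeaenol replicate 4. Of 17 G1 cyclins and CDK inhibitors 8 were higher (5 without PD0325901 replicate 2, 4 without oxozeaenol replicate 1) and 3 lower (2 without PD0325901 replicate 2 or oxozeaenol replicate 2 or 3). Ribosome biogenesis was higher in 25 of 42 (11 without PD0325901 replicate 2, 16 without oxozeaenol replicate 1) and lower in 0. Nucleotide synthesis was higher in 18 of 28 (9 without PD0325901 replicate 2, 11 without oxozeaenol replicate 3) and lower in 1. Of the 12 ERK feedback genes, 10 were higher with oxozeaenol. DUSP6 was at 3.6 ± 1.33 CPM with PD0325901, against 22.5 ± 9.22 with oxozeaenol and 132 ± 13.4 in control, and the log2 difference between the agents was 2.64 (SE 0.30, adjusted p = 1.41e-06). EGR1 was likewise higher with oxozeaenol than with PD0325901, by 2.09 (adjusted p = 0.00429). Of 13 AP-1 factors tested, 4 were higher than with PD0325901, FOSL1 by 1.52, MAFF by 1.39, FOS by 1.19 and MAFG, a small MAF protein, by 0.45. JUN was the 1 lower member, at 74.2 ± 13.9 against 133 ± 14.9 CPM (log2 difference -0.84, adjusted p = 5.23e-05). Among 19 NF-kB genes 10 were lower and 1 higher, NFKBIA among the lower (36.8 ± 1.32 against 52.8 ± 3.53 CPM). Interferon genes, raised against control, were lower than with PD0325901 in 18 of 37 and higher in 1 (0 to 3 without single libraries). By edgeR's test 0 of 22 ATF4 targets differed between the 2 agents, with a median log2 difference of -0.12. At an unadjusted p under 0.05, 2 were higher with oxozeaenol and 0 lower, and DESeq2 called 0.

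Against PI103 the ATF4 targets were nearly all higher. Of 22, 21 were higher with oxozeaenol than with PI103 and 0 lower: ASNS was at 28 ± 4.18 CPM with PI103 and 414 ± 143 CPM with oxozeaenol, a log2 difference of 3.88 (SE 0.40, adjusted p = 1.04e-07). Respiratory chain subunits were higher in 35 of 50 and cholesterol genes in 19 of 25. Of 19 TGF-beta and BMP targets, 16 were lower with oxozeaenol and 0 higher. SMAD7 was at 36.6 ± 0.639 CPM with PI103 and 13 ± 1.3 CPM with oxozeaenol, a log2 difference of -1.5 (SE 0.08, adjusted p = 1.79e-13). INSR was lower with oxozeaenol than with PI103, at 17.7 ± 1.97 against 28.5 ± 0.609 CPM (log2 difference -0.68, adjusted p = 2.17e-05).

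**Figure D3:**
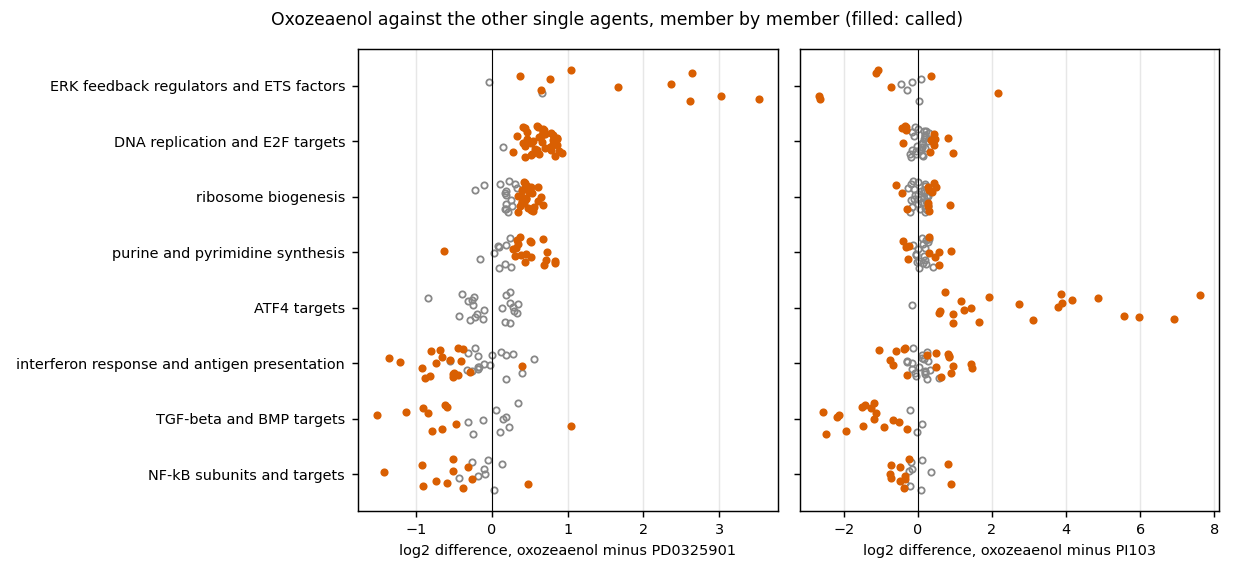
Log2 difference of oxozeaenol from PD0325901 (left) and from PI103 (right) for each tested member of 8 gene lists, 1 point per gene, filled where edgeR called the difference. Of 40 replication genes 39 were called higher than with PD0325901, and of 22 ATF4 targets 21 were called higher than with PI103.

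At 634 genes oxozeaenol differed from control, PD0325901 and PI103 at once in the same direction, 259 above all of them (1.86%) and 375 below (2.69%). These 3 comparisons share the oxozeaenol libraries. SOX2 was at 42.5 ± 3.03 CPM with oxozeaenol, 10.8 ± 1.61 in control, 13.6 ± 4.24 with PD0325901 and 13.6 ± 1.84 with PI103 (SD, n = 4 each). SPP1, the secreted matrix protein osteopontin, was at 6.29 ± 1.44 CPM against 1.4 ± 0.509, 1.18 ± 0.736 and 1.88 ± 0.57, and PRKCH, protein kinase C eta, at 6.17 ± 0.798 against 1.16 ± 0.231, 2.26 ± 0.679 and 0.405 ± 0.152. TTN, its neighbour CCDC141 and the sodium-proton exchanger SLC9A4 completed the 6 genes farthest above the other groups. Among those below, FSCN1, the actin-bundling fascin, was at 3.56 ± 0.876 CPM against 14.9 ± 1.2 in control, 18.4 ± 2.08 with PD0325901 and 15.1 ± 2.21 with PI103. KLF2, a Krüppel-like factor, was at 5.19 ± 0.802 against 22.4 ± 7.31, 19.6 ± 1.14 and 18.8 ± 1.05. ID3 was at 19.5 ± 4.65 against 58.9 ± 3.17, 55.5 ± 8.47 and 84.2 ± 6.62.

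DPYSL3 and LOC153469 had higher means with the other agents than in control and lower means with oxozeaenol. DPYSL3, a cytoskeletal protein of migrating cells, was at 109.7 ± 43 CPM with oxozeaenol, 311 ± 20.4 in control, 818 ± 92.8 with PD0325901 and 542 ± 16.3 with PI103. LOC153469, a locus without a protein name, was at 0.577 ± 0.234 CPM against 2.82 ± 0.313, 12.5 ± 1.54 and 7.53 ± 0.408. SLCO2A1 was at 1.22 ± 1.01 CPM against 20.8 ± 2.64, 3.4 ± 1.97 and 17.4 ± 1.35, so its PD0325901 mean was also low.

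**Figure D4:**
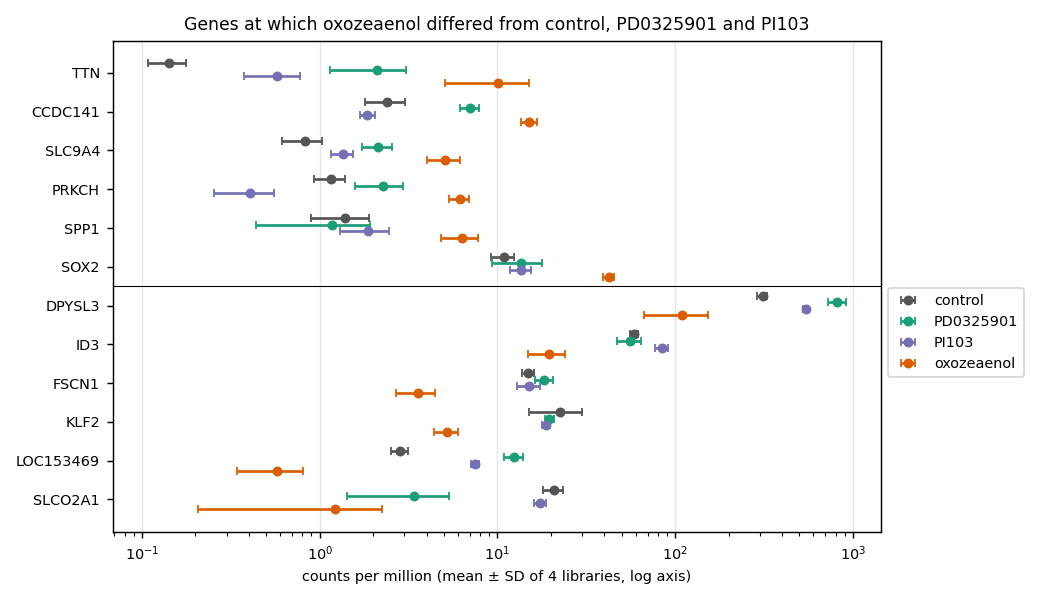
Mean CPM (log axis) ± SD of 4 libraries in control, PD0325901, PI103 and oxozeaenol for the 6 genes farthest above (upper part) and the 6 farthest below (lower part) all 3 other groups. SOX2 sits near 10.8 to 13.6 CPM in the other groups and at 42.5 CPM with oxozeaenol, and oxozeaenol has the lowest mean at each gene of the lower part.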

How the data were processed

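RNA was extracted from AGS cells after 24 h of treatment, and 0.8 µg of total RNA per sample entered a stranded mRNA library preparation, per the labels' protocols. The authors deposited a table of raw read counts, 1 row per gene symbol, made on GRCh38 per the submitters' processing notes. The aligner, counter, annotation and use of strand in counting are not given in the sources used here. The 5 tally rows were dropped ("no feature" reads were 5.2% to 8.57% of each library's total in the 8 libraries). Groups came from sample titles.

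Genes passing edgeR's filterByExpr (13947 of 23368, with 99.989% of counts) were fitted over all 24 libraries in 6 groups with edgeR 4.0.16 (TMM scaling, robust quasi-likelihood F test, Benjamini-Hochberg adjustment over all genes tested, R 4.3.3). Genes were called at an adjusted p under 0.05. Each standard error was derived from the fold change and its F statistic. CPM values use the TMM-scaled library sizes. The depth of 38057638 counts or more makes counting error small except at genes with a few counts. DESeq2 1.42.0 and other filters, scalings and fits were alternatives. On simulated data for oxozeaenol against control, the test recovered 84% of genes raised 1.5-fold and 100% of those raised 2-fold, among 13389 genes. It called 12 of 13189 unchanged genes. The simulation changed 50 genes at each fold, gave all other genes and groups the control mean, and had no batch differences. In the data 51.9% of genes were called, so scaling and false calls were not tested at that extent of change.

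Replicate numbers pair the samples, since the labels give the same number as the batch. Deviations of same-batch control and oxozeaenol libraries correlated at 0.243, -0.022, -0.05 and 0.022, and same-numbered libraries of all groups at a mean of 0.12 over 60 pairs, against -0.039 over 180 pairs with different numbers.

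Named genes were the 12 largest rises and falls with at least 5 CPM in the higher group and the same sign in all batches, the 5 largest gains and losses of CPM, a set of pathway readouts, the leading called members of each gene list, and the 6 genes farthest above and below control, PD0325901 and PI103. Other genes named in the text were chosen after their values were seen, and some genes the rule chose are not reported here. The comparison, its members and the 48 gene lists were chosen with earlier results of these data known. Of 982 listed symbols 968 matched the table. Gene positions and exon overlaps are from GENCODE annotation of GRCh38. Promoters of 300 bases (250 before and 50 after the start) are from RefSeq, GRCh38.p14, matched by symbol for 15803 of 23368 genes, 10631 of them tested.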

Additional observations from a re-analysis of the deposited data

Results flagged for a closer look

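In 25 of 402 groups of 4 libraries checked (198 genes), 1 library stood apart from the other libraries of its group by more than the 95% critical value of Dixon's gap test. Chance flags about 1 in 20 groups. Of these, 9 were in oxozeaenol replicate 4. MT1E was high there (19.4 CPM against 4.97 to 5.62 in the other oxozeaenol libraries), as were MT1F (12 against 3.09 to 3.46), TTN (17.4 against 6.67 to 8.255), MSMB (12 against 4.28 to 5.24) and CXCL1 (1.76 against 1.08 to 1.14). Low there were SMAD7 (11 against 13.5 to 13.8), TAB1 (18.95 against 21.2 to 21.6), CLDN4 (242 against 309.7 to 315) and KRT8 (2115 against 2819 to 2859).

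In oxozeaenol replicate 1, EGFR was high (24.8 CPM against 19.4 to 20.04), as was PDIA4 (1007 against 885 to 905), and ACSS2 (125 against 143 to 146), IFIT1 (58.2 against 77.2 to 79.9) and IL18 (114 against 159 to 165.5) were low. In oxozeaenol replicate 2, CD55 was high (1066 against 842 to 855) and KLHDC7B had 0.52 CPM against 0 in the others. In oxozeaenol replicate 3, CDK1 (493 against 381 to 388) and GINS1 (307 against 252 to 260.1) were high. Among controls, replicate 1 stood apart at ALPPL2 (1.6 against 1.22 to 1.28), ITGA5 (75.1 against 85.3 to 86.15), CXCL2 (2.98 against 4.42 to 4.71) and IER5 (60.4 against 50.9 to 52.2), replicate 3 at ADSSL1 (0.745 against 1.115 to 1.15) and ATF2 (53.8 against 39.05 to 40.8), and replicate 4 at BCL2L13 (78.7 against 68.8 to 69.8).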

How the results depend on the processing

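The number of genes called against control was 7232 and lay between 6365 and 7833 under the alternatives other than a minimum change, and between 6361 and 7222 without single libraries. A test for changes beyond 1 (log2) called 640 (387 higher and 253 lower), so 60.5% of its calls were higher against 49.6% of all calls. The same test called 91 genes against PD0325901, 413 against PI103 and 10 that differed from all 3 groups at once. Against PD0325901 the 3976 calls became 2348 when only these 2 groups were fitted, and 2385 to 4282 without single libraries. The calls against PI103 ranged from 5165 to 6166 without single libraries. The 634 genes that differed from all 3 groups became 446 to 808 without single oxozeaenol libraries, and no library of another group was left out for this count. With the batch as a replicate block in the pairing, 7833 genes were called against control, 5067 against PD0325901, 6014 became 6732 against PI103 and 634 became 927, and among 198 genes named it changed the calls of DUSP7, INSR and NUPR1 alone. Of these 198 genes, 181 kept their call in every alternative except the minimum change, under which 84 lost it. The direction turned at 9 genes that were not called: ODC1 was at 0.01 with only the 2 groups fitted, 0.03 with library size alone and 0.01 with at least 1 CPM in 4 libraries, and at -0.03 to 0.05 without single libraries, while TNFAIP3 was at 0.00 with library size alone and -0.14 to 0.13 without single libraries. ATF2 was at 0.00 with only the 2 groups fitted, 0.02 with library size alone and -0.06 to 0.11 without single libraries. Without single libraries, CDH1 lay at -0.01 to 0.28, CLDN4 at -0.10 to 0.04, IER5 at -0.08 to 0.03, JUND at -0.18 to 0.05, KRT8 at -0.12 to 0.02 and NR4A2 at -0.83 to 0.12. None of these 9 genes was called in any of these fits. In each of these the cause was not tested. The median over all genes stayed between -0.002 and 0.068. The median of metalloproteinase and plasminogen genes, -0.26, became 0.21 with only the 2 groups fitted and 0.23 with at least 1 CPM in 4 libraries. Each median was taken over the genes that passed that setting's own filter, so the genes behind it can differ between settings. Low counts limit the genes nearest to silence, such as IL8 and SPRR2D with oxozeaenol.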
